A study of Mus musculus with 9 samples.

Results

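The 10 genes described here carry or control phosphate and calcium in the kidney, or make, break down or sense active vitamin D. They were Slc34a1, Slc34a3, Slc20a2, Kl, Fgfr1, Cyp24a1, Cyp27b1, Vdr, Trpv5 and Calb1, taken by gene symbol from the mRNA values of 21950 genes in renal cortex. All mice were male, on the C57BL/KsJ background, and 15 weeks old. The dbdb and dbR mice were homozygous for the db mutation of the leptin receptor gene (BKS.Cg-Dock7m+/+Leprdb/Nju), and the control mice were their nondiabetic db/m littermates, heterozygous for it. Rosiglitazone, an insulin-sensitizing drug that activates PPARγ, was given to the dbR mice by gavage at 20 mg/kg/day. This treatment began at 7 weeks of age and lasted 8 weeks, and the dbdb mice received vehicle instead. The paper describes gavage for the db/db mice and does not say whether the control mice received vehicle. Each group had 3 mice with 1 RNA-seq library per mouse (n = 3 throughout). The db mutation is present in every cell of the animal, so that diabetes, obesity and the genotype itself cannot be told apart in these groups.

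Phosphate filtered by the glomerulus is taken back by sodium-coupled carriers in the brush border of the proximal tubule, and the bone hormone FGF23 lowers this uptake through an FGF receptor that is bound to klotho. FGF23 also acts on vitamin D: in the proximal tubule Cyp27b1 makes calcitriol, the active hormone, and Cyp24a1 inactivates it. Calcitriol binds the vitamin D receptor and is known to raise Cyp24a1 and the calcium transport genes. The final adjustment of urinary calcium takes place in the distal convoluted and connecting tubules, where calcium enters through the channel Trpv5, is carried across the cell by calbindin and leaves through pumps and an exchanger on the blood side.

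The values are FPKM, fragments per kilobase of transcript per M (1000000) mapped fragments, so that levels can be compared between genes. Gene levels are sums over transcripts and depend on how reads were divided between them. In control a transcript of 453 bases held 31.4% of Fgfr1, and a transcript of 389 bases held 8.00% of Vdr. Slc34a1 stood highest, with a mean of 1383 FPKM over the 9 libraries, and 32 of the 21950 genes had a higher mean. In the control group the order of the others by mean was Kl at 206, Vdr and Calb1 at 42.8 and 42.7, Slc34a3 at 22.7, Slc20a2 at 16.1, Fgfr1 at 14.0, Cyp24a1 at 10.9, Trpv5 at 3.37 and Cyp27b1 at 2.60 FPKM. The control libraries of neighbours in this order overlapped for Vdr and Calb1, Slc20a2 and Fgfr1, Fgfr1 and Cyp24a1, and Trpv5 and Cyp27b1. In dbdb the order was Kl at 213, Calb1 at 189, Cyp24a1 at 50.5, Vdr at 49.9, Slc34a3 at 27.2, Cyp27b1 at 19.6, Slc20a2 at 15.8, Fgfr1 at 15.0 and Trpv5 at 9.79 FPKM. There the libraries of neighbours overlapped except for Calb1 and Cyp24a1, Vdr and Slc34a3, and Fgfr1 and Trpv5. In dbR it was the same except that Vdr (49.2 FPKM) stood above Cyp24a1 (45.4 FPKM) and Fgfr1 (15.5 FPKM) above Slc20a2 (13.8 FPKM). The libraries held an estimated 24.5 M to 30.6 M fragments, read from the size of the steps between low values. At this depth the principal transcript of Cyp27b1 rested on about 100.2 to 1736 fragments per library and that of Trpv5 on about 275 to 955. Mitochondrial transcripts made up 26.9% to 32.8% of the mRNA FPKM.

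The libraries carried the markers of renal cortex. The summed FPKM of 10 proximal tubule markers lay between 2908 and 3048 in the control libraries, between 2559 and 3214 in dbdb and between 2970 and 3072 in dbR. The adrenal genes Cyp11b1, Cyp11b2, Th and Dbh were listed at 0 in every library. Cyp17a1, Cyp21a1 and Mc2r of the same list reached at most 0.241, 0.0193 and 0.425 FPKM in any library. All 7 adrenal markers summed to 0.0470 to 0.175 FPKM in control, 0.126 to 0.513 in dbdb and 0.356 to 0.488 in dbR. The 6 fat tissue markers summed to at most 1.13 FPKM in any library. Between dbdb and control, 2 of the 10 proximal markers were higher and 2 lower past the test, beside 26.4% of all genes. Of the other lists, 2 of 6 thick ascending limb, 5 of 6 distal convoluted tubule, 6 of 8 connecting tubule and principal cell, 6 of 6 intercalated cell and 3 of 6 podocyte markers were higher, with none lower. Among endothelial markers 4 of 6 were lower, with a summed FPKM of 116 to 128 in control, 85.0 to 92.8 in dbdb and 117 to 137 in dbR. Among immune cell markers 4 of 7 were lower, with sums of 43.0 to 51.1, 20.6 to 36.0 and 29.2 to 38.2 FPKM. In dbR against dbdb the markers called were the endothelial Kdr (0.52) and Emcn (0.66), Atp6v1g3 (0.52) of intercalated cells and Fxyd4 (0.64) of principal cells, all with log2 fold changes above 0. Between dbdb and control, of the inner medulla list 1 of 2 tested genes was lower, and of the adrenal and fat lists 0 of 2 tested genes each passed. In whole tissue a change in the number of cells of a type and a change of RNA per cell cannot be told apart, and the part of either in the changes of the 10 genes was not tested.

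The 3 groups were compared pairwise with limma on log2(FPKM + 0.1), and a gene was called at a Benjamini-Hochberg adjusted p under 0.05 over all 14537 genes tested. All 10 genes passed the filter on low values. In dbdb against control, 4 of the 10 were called, all higher: Cyp27b1, Calb1, Cyp24a1 and Trpv5. Over all genes 26.4% were called in this comparison. The same 4 genes were called higher in dbR against control, where 24.1% of all genes were called. In dbR against dbdb 0 of the 10 were called by limma, beside 0.743% of all genes, and 2 of the 10 (Calb1 and Slc20a2) had an unadjusted p under 0.05, as did 17.5% of all genes. The median log2 fold change of the 10 genes was 0.25 in dbdb against control, -0.13 in dbR against dbdb and 0.19 in dbR against control, and that of all genes was -0.00 in each. The first and the third comparison share the control libraries, the first and the second share the dbdb libraries, and the second and the third share the dbR libraries, so that they are not independent of each other.

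**Figure D1:**
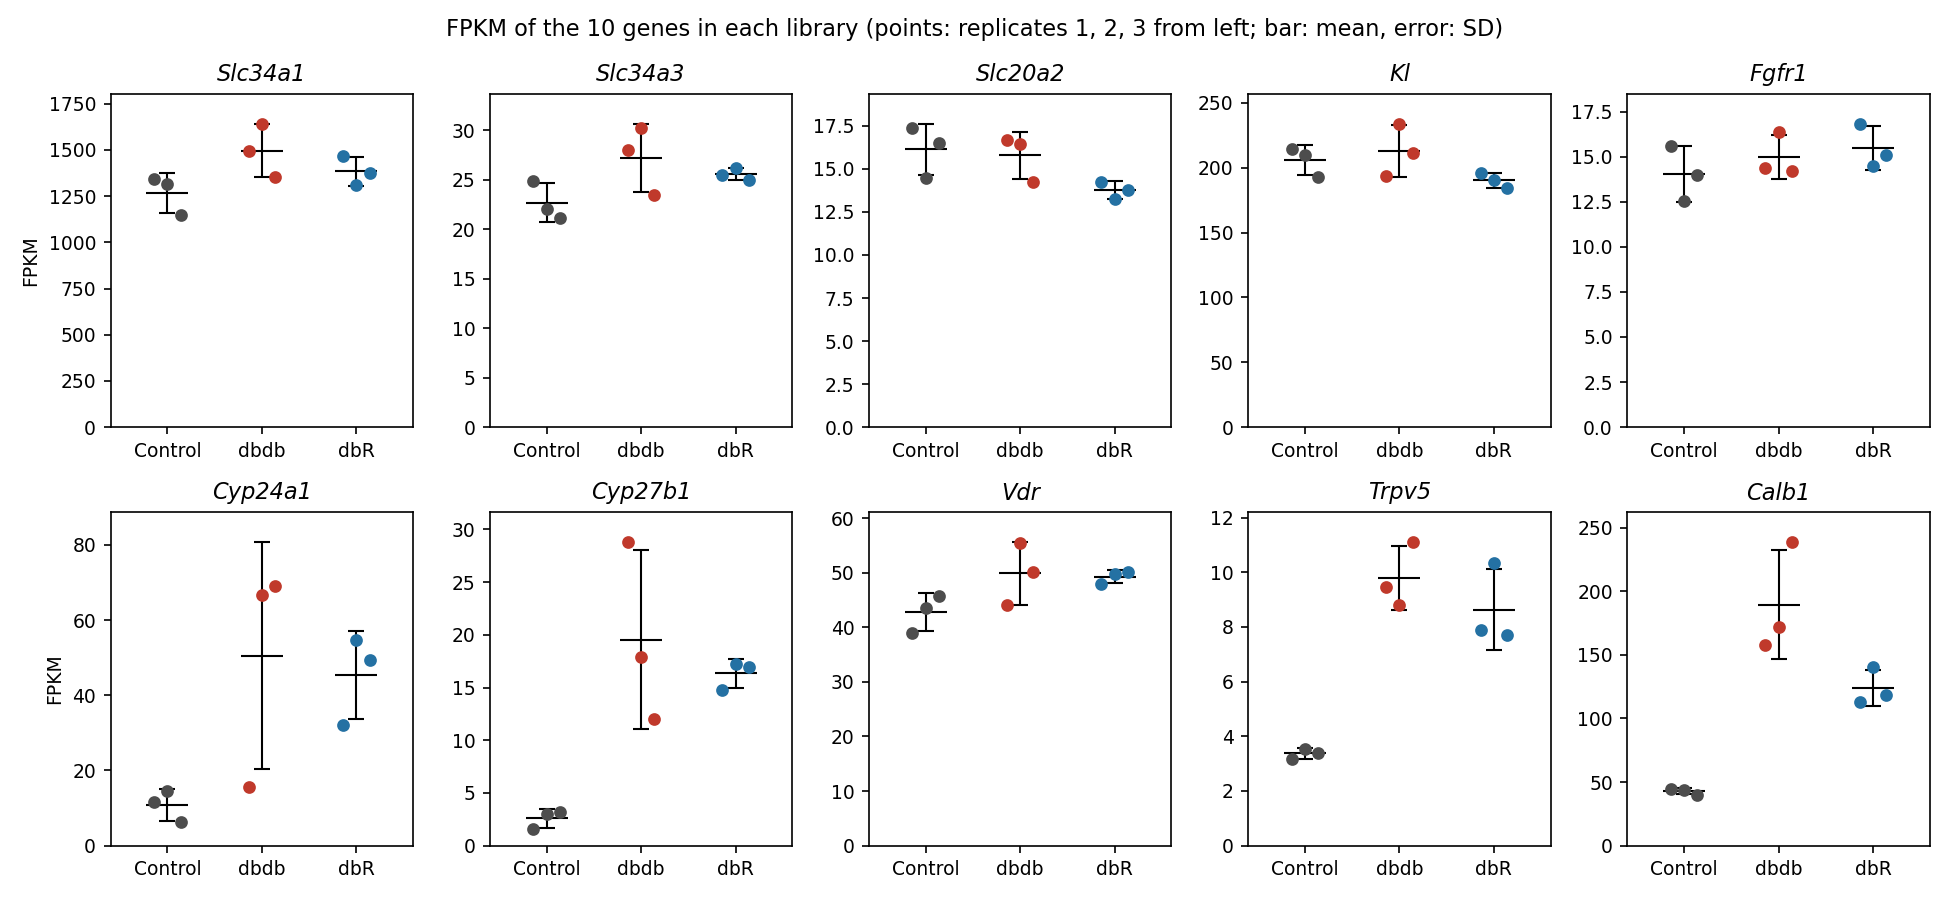
FPKM of each of the 10 genes on linear axes that start at 0. Points are single libraries of control (grey), dbdb (red) and dbR (blue) mice, and bars are the group mean with SD (n = 3). Cyp27b1, Trpv5 and Calb1 stood far above every control library in all dbdb and dbR libraries, whereas no gene among the phosphate carriers, Kl, Fgfr1 and Vdr was called in any comparison.

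Among the 10 genes the largest fold change was that of Cyp27b1, the hydroxylase that makes calcitriol (gene on the forward strand at chr10:127048250-127053006, GRCm38). Its level was 1.57, 3.03 and 3.20 FPKM in the control libraries, 28.8, 17.9 and 12.0 FPKM in dbdb and 14.8, 17.3 and 17.0 FPKM in dbR. All 6 libraries of db/db mice lay above all 3 control libraries, and the dbdb group spanned a far wider range than the dbR group. The log2 fold change of dbdb against control was 2.84 ± 0.31 (SE, 7.53-fold by the means, adjusted p = 0.000211), and that of dbR against control was 2.67 ± 0.31 (SE, adjusted p = 0.000336). Between dbR and dbdb the log2 difference was -0.17, with a 95% confidence interval from -0.87 to 0.53 (adjusted p = 0.822).

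The 250 bases before the Cyp27b1 start are shown because this gene had the largest fold change of the 10. They lie on the forward strand at chr10:127047996-127048245 (RefSeq, GRCm38.p6), and capitals mark the only match found, a CCAAT box on the reverse strand whose first printed base is 86 bases before the start.
Cyp27b1: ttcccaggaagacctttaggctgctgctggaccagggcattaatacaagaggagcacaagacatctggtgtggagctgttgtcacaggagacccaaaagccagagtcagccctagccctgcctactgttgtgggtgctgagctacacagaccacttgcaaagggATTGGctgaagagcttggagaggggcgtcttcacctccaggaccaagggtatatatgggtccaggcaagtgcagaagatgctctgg
The window was searched on both strands for AGGTCA and AGTTCA, half-sites that nuclear receptors such as the vitamin D receptor can bind, for TATAAA, for CCAAT and for TGACGTCA, the cyclic AMP element. CCAAT occurs in 33.8% of the 32851 mouse promoter windows of this length, and a match or its absence describes only these letters.

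Cyp24a1, which inactivates calcitriol (chr2:170482708-170497145, reverse strand, GRCm38), was higher as well, with a wide spread. The control libraries held 11.7, 14.6 and 6.27 FPKM, the dbdb libraries 15.7, 66.8 and 69.1 FPKM and the dbR libraries 32.2, 54.6 and 49.3 FPKM. Replicate 1 of dbdb lay just above the highest control library and far below the other two dbdb libraries. The log2 fold change was 2.02 ± 0.52 (SE, adjusted p = 0.0185) for dbdb against control and 2.10 ± 0.52 (SE, adjusted p = 0.0166) for dbR against control. Between dbR and dbdb it was 0.08, with a 95% confidence interval from -1.08 to 1.25. The call in dbdb against control was lost without control replicate 3 (log2 fold change 1.67, adjusted p = 0.0656), without dbdb replicate 2 (1.68, adjusted p = 0.0689) and without dbdb replicate 3 (1.66, adjusted p = 0.0586), and without dbdb replicate 1 the value was 2.72. The call in dbR against control was lost without control replicate 3 (1.75, adjusted p = 0.0600) and without dbR replicate 2 (1.95, adjusted p = 0.0586).

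The dbdb library with the lowest Cyp24a1 had the highest Cyp27b1, and the one with the highest Cyp24a1 had the lowest Cyp27b1. The ratio of Cyp24a1 to Cyp27b1 was 0.547, 3.74 and 5.75 in the dbdb libraries. In dbR it was 2.18, 3.16 and 2.91, and in the control libraries 7.45, 4.83 and 1.96. The 3 groups overlapped, and the SD of the log2 ratio was 1.80 in dbdb, 0.96 in control and 0.28 in dbR. The difference of the log2 ratio between dbdb and control was -0.82 (exact permutation test, two-sided, p = 0.60, n = 3 per group). It was 0.26 between dbR and dbdb (exact p = 1.0) and -0.56 between dbR and control (exact p = 0.50). With 3 libraries against 3 this test cannot give a p below 0.10. Without dbdb replicate 1 the first difference turned to 0.20 and the second to -0.77, so that their sign rests on that library.

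**Figure D2:**
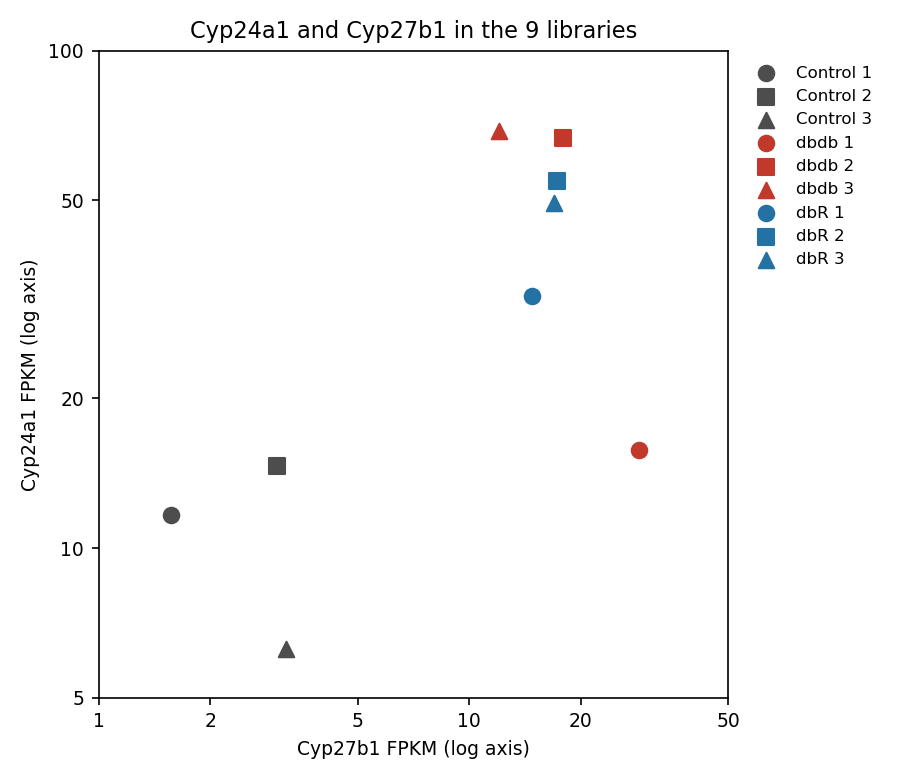
Cyp24a1 against Cyp27b1 FPKM in the 9 libraries, both on log axes, with 1 symbol per library. All db/db libraries lie to the right of the control libraries, and dbdb replicate 1 combines the highest Cyp27b1 (28.8 FPKM) with a Cyp24a1 level (15.7 FPKM) near that of control.

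Vdr, the receptor for calcitriol (chr15:97854425-97910630, reverse strand), stood at 39.0, 43.5 and 45.8 FPKM in control, 44.0, 55.4 and 50.2 FPKM in dbdb and 47.9, 49.7 and 50.1 FPKM in dbR. Control and dbdb overlapped, whereas the dbR libraries lay above the control libraries. Its log2 fold change was 0.22 ± 0.09 (SE, adjusted p = 0.0944) in dbdb against control and 0.21 ± 0.09 (SE, adjusted p = 0.118) in dbR against control, and neither was called. Of its 5 listed transcripts 1 carried 94.9% of the FPKM. By this transcript alone dbdb (43.3, 53.7 and 49.8 FPKM) exceeded control (37.0, 39.8 and 40.9 FPKM) in every library, and the difference was called (log2 fold change 0.31, adjusted p = 0.0197).

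Among 14 other tested genes of vitamin D metabolism and uptake, 4 were higher and 2 lower in dbdb than in control, and 8 were not called. Their median log2 fold change was 0.08, and 26.4% of all genes were called in either direction. Gc, the vitamin D binding protein of plasma, had the greatest log2 fold change, 2.54 (adjusted p = 1.10e-05), with means of 5.75 FPKM in control, 33.5 in dbdb and 44.9 in dbR. Rxrg and Rxra, partners of the vitamin D receptor on DNA, had log2 fold changes of 1.41 and 0.35, and Cyp27a1, a mitochondrial sterol hydroxylase, had 0.41. Lower were Fdx1, the ferredoxin that passes electrons to mitochondrial cytochromes P450 (log2 fold change -0.39), and Pdia3, a disulfide isomerase (-0.36). Lrp2 and Cubn, the endocytic receptors that take up filtered vitamin D with its binding protein, stood at -0.35 for Lrp2 (adjusted p = 0.0632) and -0.04 for Cubn (adjusted p = 0.845) on the same scale. In dbR against control 5 of the 14 were higher and 2 lower, beside 24.1% of all genes called. In dbR against dbdb none of the 14 was called by limma, beside 0.743% of all genes.

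Calb1 encodes calbindin, the calcium-binding protein of the distal tubule (chr4:15881264-15908064, forward strand). Its level was 44.8, 43.5 and 40.0 FPKM in control, 158, 172 and 238 FPKM in dbdb and 113, 140 and 119 FPKM in dbR. The 3 groups did not overlap, with dbdb highest and dbR between dbdb and control. The log2 fold change was 2.12 ± 0.14 (SE, 4.43-fold by the means, adjusted p = 1.36e-05) in dbdb against control and 1.53 ± 0.14 (SE, 2.90-fold, adjusted p = 8.49e-05) in dbR against control. From dbdb to dbR the mean was 34.5% lower, a log2 difference of -0.59 with a 95% confidence interval from -0.91 to -0.28. Its unadjusted p was 0.00175 and its adjusted p was 0.0763, and it was not called. Calb1 was the only 1 of the 10 genes whose dbR and dbdb libraries did not overlap, where 22.7% of all genes tested did not.

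Trpv5, the calcium channel at the entry of the same cells (chr6:41652173-41680769, reverse strand), stood at 3.16, 3.55 and 3.40 FPKM in control, 9.46, 8.82 and 11.1 FPKM in dbdb and 7.87, 10.3 and 7.69 FPKM in dbR. Every db/db library exceeded every control library, and dbR and dbdb overlapped. For Trpv5 the log2 fold change was 1.51 ± 0.13 (SE, 2.90-fold by the means, adjusted p = 4.95e-05) in dbdb against control and 1.32 ± 0.13 (SE, 2.56-fold, adjusted p = 0.000108) in dbR against control. Between dbR and dbdb it was -0.19, with a 95% confidence interval from -0.47 to 0.10.

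Of the other promoter windows, each the 250 bases before the RefSeq start, that of Trpv5 held 1 TATAAA, a motif found on either strand in 12.4% of all windows. Slc34a1 and Vdr each held 1 AGTTCA, Slc34a3 held 2 AGGTCA and 1 CCAAT, and Kl held none of the 5 motifs. AGGTCA occurs in 14.0% and AGTTCA in 11.8% of all windows. The RefSeq and GENCODE starts differ for several of these genes: by the GENCODE gene spans printed here, 250 of the 250 bases of the Slc34a1 and Vdr windows, 130 of the Slc34a3 window and 46 of the Trpv5 window, its TATAAA among them, lie inside the gene, and 0 of the Cyp27b1 and Kl windows. Slc20a2, Fgfr1, Cyp24a1 and Calb1 had no entry.

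The ratio of Trpv5 to Calb1 was 0.0705, 0.0817 and 0.0852 in control, 0.0599, 0.0513 and 0.0465 in dbdb and 0.0696, 0.0738 and 0.0647 in dbR. All 3 dbdb libraries lay below the other 6. The difference of the log2 ratio was -0.62 for dbdb against control and 0.41 for dbR against dbdb (exact permutation test, two-sided, p = 0.10 each, the smallest possible, n = 3 per group). It was -0.21 for dbR against control (exact p = 0.20). Adjusted over the 9 ratio tests the lowest p was 0.45.

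Most markers of the distal segments were also higher in db/db mice. Against control 11 of 14 were called higher in dbdb and 13 of 14 in dbR, beside 26.4% and 24.1% of all genes called. The 3 that were not called in dbdb were Egf (log2 fold change 0.18), Aqp3 (0.20) and Fxyd4 (-0.18). The summed FPKM of 6 distal convoluted tubule markers was 412 to 469 in control, 595 to 716 in dbdb and 680 to 744 in dbR. That of 8 connecting tubule and principal cell markers was 1063 to 1172, 1832 to 2082 and 2236 to 2862, and S100g, itself a calcium transport gene, made up 85.5% to 92.2% of it. The other 7 summed to 127 to 151, 197 to 291 and 216 to 235 FPKM, so that dbR and dbdb overlapped without S100g. Slc12a3, the thiazide-sensitive sodium chloride carrier that defines the distal convoluted tubule, had a log2 fold change of 0.98 (adjusted p = 2.61e-05) in dbdb against control and 1.08 in dbR against control. Scnn1g, a subunit of the epithelial sodium channel, had 1.02 and 0.91. The means of the log2 levels of all 14 markers were 0.76 higher in dbdb and 0.81 higher in dbR than in control. Relative to this mean Calb1 was 1.37 higher in dbdb and 0.72 higher in dbR than in control on the log2 scale, and Trpv5 was 0.75 and 0.51 higher, and in each of these the groups did not overlap. From dbdb to dbR the mean of the markers was 0.06 higher, over single markers that differed in both directions, from -0.40 for Aqp2 and -0.28 for Trpm6 to 0.36 for S100g and 0.64 for Fxyd4, which alone of the 14 was called (adjusted p = 0.0433). Relative to this mean Calb1 differed by -0.65, without overlap, and Trpv5 by -0.24, with overlap. This scaling was added after the data had been seen, and 5 of the 14 markers (S100g, Trpm6, Wnk4, Pvalb and Egf) are also in the calcium and magnesium transport list. The part of distal cell number in the changes of Calb1 and Trpv5 was not tested.

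**Figure D3:**
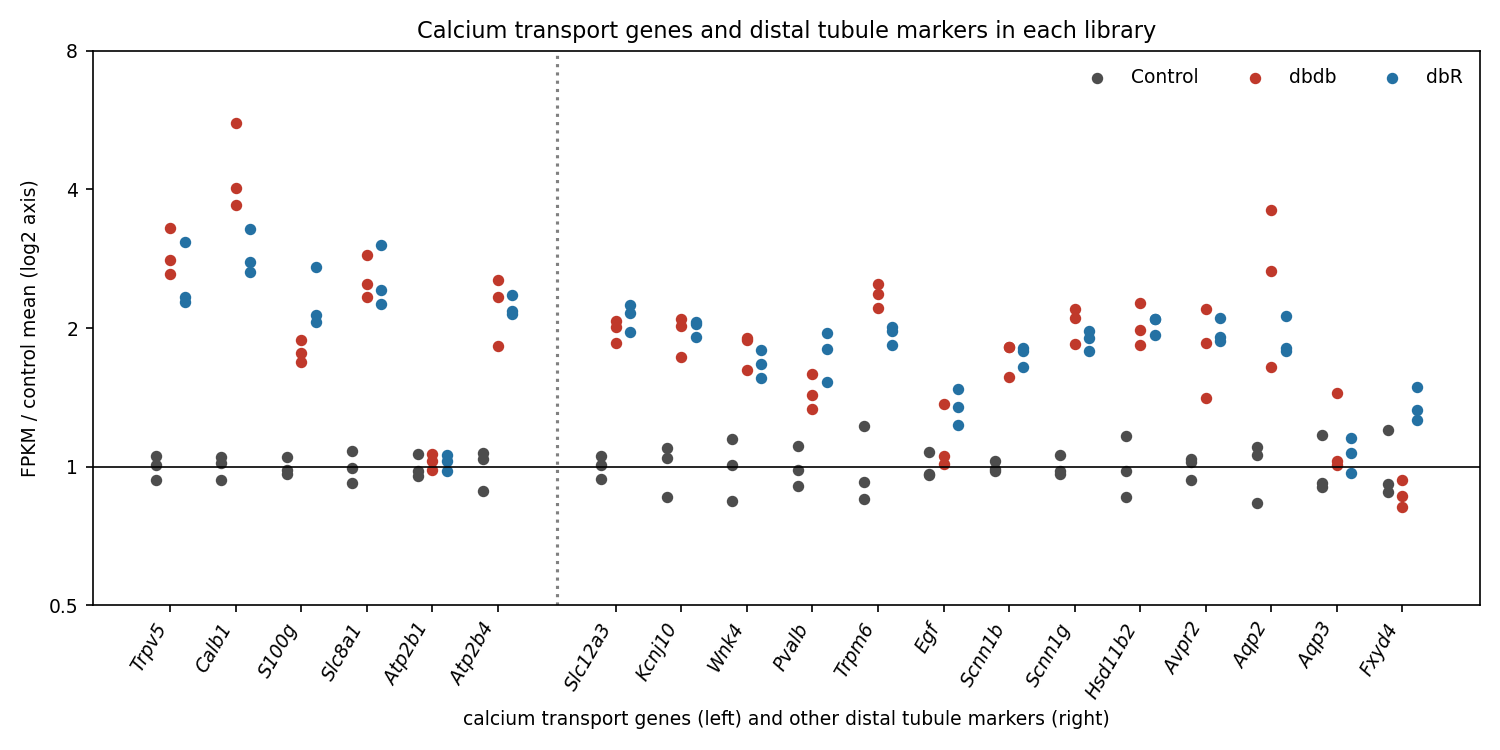
Level of calcium transport genes (left of the dotted line) and of other distal tubule markers (right) in each library, as FPKM divided by the control mean on a log2 axis. In the dbdb libraries Calb1 reached 3.69 to 5.58 and Trpv5 2.61 to 3.29 times the control mean, beside 1.85 to 2.07 times for Slc12a3, 1.65 to 3.60 times for Aqp2, 2.34 to 2.89 times for Slc8a1, 2.21 to 2.49 times for Trpm6 and 0.983 to 1.07 times for Atp2b1.

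Some other genes of calcium and magnesium transport were called higher too. Of 22 tested genes other than Trpv5 and Calb1, 10 were higher and 1 lower in dbdb than in control. The remaining 11 were not called, and the median log2 fold change was 0.36. Over all genes 26.4% were called in either direction. Against control 12 were higher and 1 lower in dbR, beside 24.1% of all genes called. Whether this list differed from all genes was not tested. At the exit of the distal cell, Slc8a1, the sodium-calcium exchanger, had a mean of 51.1 FPKM in control, 132 in dbdb and 131 in dbR (log2 fold change 1.36 in dbdb, adjusted p = 5.43e-05). The calcium pumps differed among themselves: Atp2b4 had a log2 fold change of 1.13 (adjusted p = 0.000211) and Atp2b2 of 0.69 (adjusted p = 0.0237), whereas Atp2b1 had 0.04 (adjusted p = 0.707). S100g, a smaller calbindin, had means of 971, 1728 and 2238 FPKM in control, dbdb and dbR and a log2 fold change of 0.83 in dbdb and 1.19 in dbR against control. Trpm6, the magnesium channel of the distal convoluted tubule, had 1.22 and 0.94. Cldn10, a claudin of the tight junction, was the single gene called lower, with a log2 fold change of -0.89 in dbdb (adjusted p = 5.90e-05) and -0.51 in dbR. Casr, the calcium-sensing receptor, Cldn2, the cation pore of the proximal tubule, and Trpv6, the close relative of Trpv5, were not called in either comparison with control. None of the 22 was called in dbR against dbdb by limma, beside 0.743% of all genes.

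None of the 3 phosphate carriers among the 10 genes was called in any comparison. Slc34a1, the principal sodium-phosphate carrier of the brush border (chr13:55398187-55415592, forward strand), stood at 1345, 1315 and 1146 FPKM in control, 1497, 1641 and 1353 FPKM in dbdb and 1466, 1308 and 1377 FPKM in dbR. A narrow gap separated dbdb from the control libraries, and dbR overlapped both. The log2 fold change of dbdb against control was 0.24 ± 0.10 (SE, 18.0% by the means, adjusted p = 0.121), and that of dbR against control was 0.13 (95% confidence interval -0.10 to 0.36, adjusted p = 0.415). With Slc34a1 there were 5 of the 10 genes whose dbdb and control libraries did not overlap, beside 42.4% of all genes.

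Slc34a3, a second brush border carrier (chr2:25228898-25234364, reverse strand), held 24.9, 22.0 and 21.2 FPKM in control, 28.0, 30.2 and 23.5 FPKM in dbdb and 25.5, 26.2 and 25.0 FPKM in dbR. Its log2 fold change was 0.26 ± 0.09 (SE, adjusted p = 0.0700) in dbdb against control and 0.18 (adjusted p = 0.209) in dbR against control. The ratio of Slc34a1 to Slc34a3 stayed between 49.9 and 59.7 in the 9 libraries, and the log2 ratio differed between groups by -0.05 to -0.02 (exact permutation test, two-sided, p from 0.60 to 0.80, n = 3 per group).

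Slc20a2, a carrier of the other sodium-phosphate family that most cells express (chr8:22476788-22569612, forward strand), was at 17.4, 14.5 and 16.5 FPKM in control, 16.7, 16.5 and 14.2 FPKM in dbdb and 14.3, 13.3 and 13.8 FPKM in dbR. The dbR libraries were all below the control libraries and overlapped dbdb. Its log2 fold change was -0.22 ± 0.09 (SE, adjusted p = 0.0890) in dbR against control, -0.19 (adjusted p = 0.284) in dbR against dbdb and -0.03 in dbdb against control. In dbR against control 7 of the 10 genes did not overlap (the 4 called genes, Slc34a3, Vdr and Slc20a2), beside 41.9% of all genes.

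Whether the small differences of the phosphate carriers and Vdr were called depended on the scaling and on single libraries, whereas the differences relative to the median gene hardly moved with the mitochondrial transcripts left out. With mitochondrial transcripts left out and each library brought to the same sum, the median of all genes moved to 0.15 in dbdb against control, and Slc34a1 (log2 fold change 0.40), Slc34a3 (0.41) and Vdr (0.38) were called. Relative to that median they were at 0.25, 0.27 and 0.23, beside 0.24, 0.26 and 0.22 on the deposited scale. Quantile normalization also brought the called genes to 7 of 10. In dbdb against control Slc34a3 was called with scaling to the 75th percentile (0.28, adjusted p = 0.0432), without control replicate 1 (0.33, adjusted p = 0.0467) and without dbdb replicate 3 (0.36, adjusted p = 0.0131), and Vdr was called without dbdb replicate 1 (0.30, adjusted p = 0.0265). Vdr was also called in dbR against control without mitochondrial transcripts (log2 fold change 0.30, adjusted p = 0.0383) and with quantile normalization (0.29, adjusted p = 0.0352), and Slc20a2 was called without control replicate 2 (-0.30, adjusted p = 0.0405).

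Of 10 other tested genes of phosphate transport, 2 were higher and 2 lower in dbdb than in control, with a median log2 fold change of 0.00. Of all genes, 26.4% were called in either direction. Ezr and Slc9a3r2, which tie brush border carriers to the cytoskeleton, had log2 fold changes of 0.34 and 0.30. Pdzk1, a scaffold that binds Slc34a1, had -0.29 (adjusted p = 0.0202, with 758, 622 and 657 FPKM on average in control, dbdb and dbR), and Xpr1, the phosphate exporter, had -0.16. Slc9a3r1, the other scaffold of Slc34a1, and Pth1r, the parathyroid hormone receptor, had 0.02 and -0.01 and were not called. Slc20a1 had 8.84, 11.0 and 7.59 FPKM on average, and its log2 difference of dbR against dbdb was -0.53 (adjusted p = 0.0517). In dbR against control Slc34a2 (log2 fold change 0.76) and Slc9a3r2 (0.20) were higher and Xpr1 (-0.21) and Galnt3 (-0.26) lower. Over all genes 24.1% were called in that comparison. None of the 10 phosphate transport genes was called in dbR against dbdb by limma, beside 0.743% of all genes.

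Kl, the klotho gene whose protein makes an FGF receptor respond to FGF23 (chr5:150952607-150993817, forward strand), was at 215, 210 and 193 FPKM in control, 193, 234 and 211 FPKM in dbdb and 196, 190 and 185 FPKM in dbR. All groups overlapped. For Kl the log2 fold change was 0.05 in dbdb against control (95% confidence interval -0.13 to 0.22; adjusted p = 0.698), -0.16 in dbR against dbdb (-0.33 to 0.01; adjusted p = 0.323) and -0.11 in dbR against control (-0.28 to 0.06; adjusted p = 0.324). The first value was 0.20 (adjusted p = 0.124) with mitochondrial transcripts left out, 0.05 relative to the median gene under that scaling, and -0.02 to 0.11 with 1 library left out.

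Fgfr1, the receptor that klotho joins (chr8:25513654-25575718, forward strand), held 15.6, 12.5 and 14.0 FPKM in control, 14.4, 16.4 and 14.2 FPKM in dbdb and 16.8, 14.5 and 15.1 FPKM in dbR. The groups overlapped. In dbdb against control the log2 fold change was 0.10 (adjusted p = 0.500), and in dbR against control it was 0.14 (adjusted p = 0.321). Its FPKM is shared among 8 transcripts, and a transcript of only 453 bases held 27.2% of it. By the transcript of highest level alone, which held 43.8%, the log2 fold change was 0.40 (adjusted p = 0.116) in dbdb and 0.51 (adjusted p = 0.0614) in dbR against control.

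**Figure D4:**
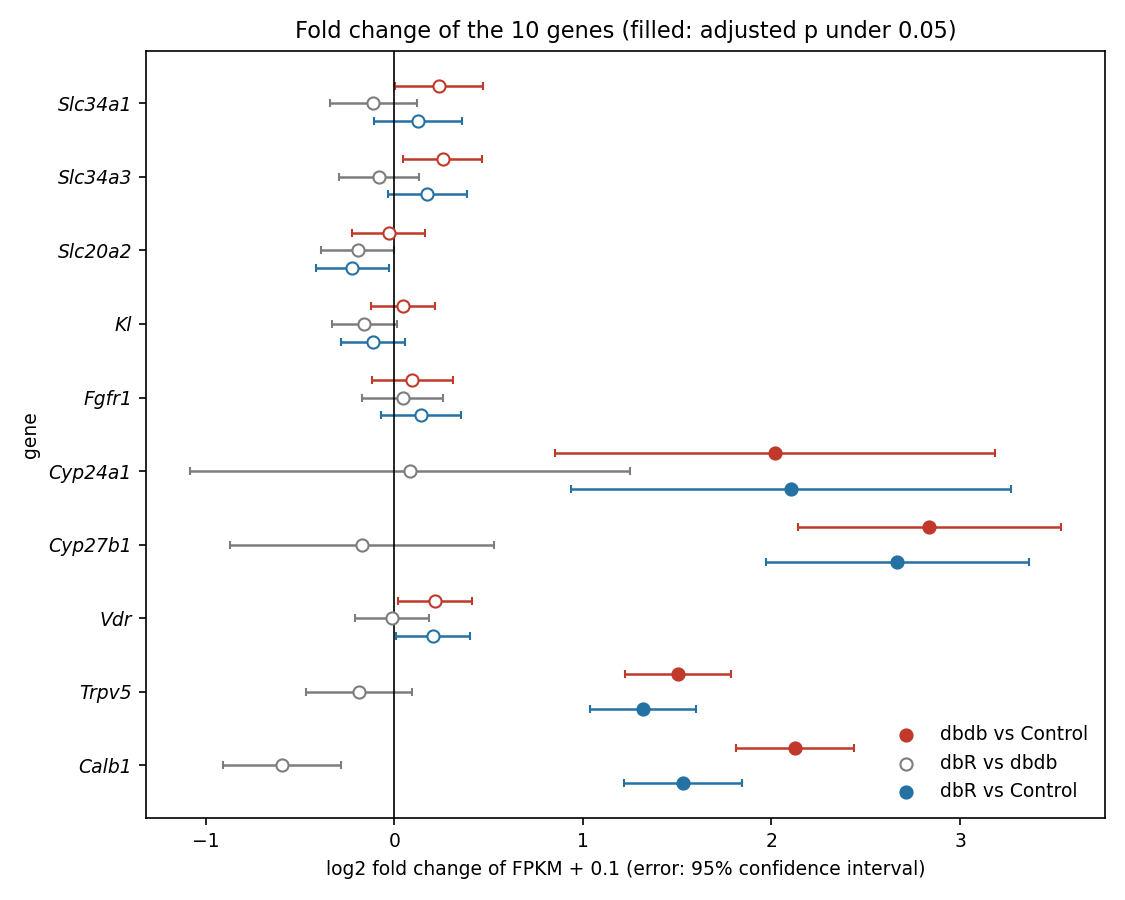
Log2 fold change of FPKM + 0.1 for the 10 genes in the 3 comparisons, with 95% confidence intervals from limma. Filled points passed an adjusted p under 0.05: Cyp24a1, Cyp27b1, Trpv5 and Calb1 in both comparisons with control, and no gene in dbR against dbdb, where Calb1 (-0.59) lay farthest from 0.

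Among 20 other tested genes of FGF23 and klotho signalling, 3 were higher and 3 lower in dbdb than in control, with a median log2 fold change of 0.07. Of all genes, 26.4% were called in either direction. Fgf1, a growth factor that binds every FGF receptor, had the greatest, -1.56 (adjusted p = 1.83e-05), with means of 89.1, 30.1 and 32.9 FPKM in control, dbdb and dbR. Adam10 and Adam17, proteases that can shed klotho from the cell surface, had -0.32 and -0.25, and Bace1, another such protease, had 0.23. Fgfr2 had 0.46 and Lctl, a klotho relative, 0.54, whereas Fgfr3 and Fgfr4 were not called. Fgf23 itself, a hormone made in bone, was listed at 0 in every library. In dbR against control 2 of the 20 were higher and 3 lower, beside 24.1% of all genes called. Among the higher was Spry1, an inhibitor of FGF signalling, at 0.90 (adjusted p = 0.00167). None of the 20 was called in dbR against dbdb by limma, beside 0.743% of all genes.

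For Calb1, Trpv5 and Cyp27b1 the 3 tested genes with the most similar pattern were taken by Pearson's r of log2 levels over the 9 libraries, as a description only, since most of any such pattern is the step from control to db/db mice. For Calb1 they were Tmem65 (r = 0.996), Spp1 (0.995), the osteopontin gene, which had means of 379, 1098 and 860 FPKM in control, dbdb and dbR, and Aif1l (0.990). For Trpv5 they were Lsamp (0.993), Cyp2j6 (0.989) and Stim1 (0.988), the calcium sensor of the endoplasmic reticulum. For Cyp27b1 they were Zfp788 (0.985), Fam222a (0.984) and Dnajb3 (0.980). Above r = 0.95 there were 123 genes for Trpv5, 121 for Calb1 and 45 for Cyp27b1, and 5 for Cyp24a1.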

How the data were processed

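RNA of the renal cortex of 3 mice per group was depleted of ribosomal RNA, made into strand-specific libraries and sequenced as 150 bp paired reads. The authors aligned the reads to the mouse transcriptome of Ensembl (GRCm38.p2, TopHat2 2.0.9), assembled them with Scripture and Cufflinks 2.1.1, and deposited FPKM per transcript for each library. Values for lncRNAs were not used. Transcript FPKM were summed per gene (50660 mRNA transcripts of 21950 genes), and the 14537 genes whose mean FPKM reached 0.1 were tested. Log2(FPKM + 0.1) of all 9 libraries was fitted with limma 3.58.1 (R 4.3.3) in 1 model of 3 groups with a variance trend, and p-values were adjusted over all genes tested. The fit was tested on simulated data. A fold change on this scale understates that of low genes. Since FPKM depends on all mapped fragments and on how Cufflinks divided reads between transcripts, other scalings and the transcript of highest level were tried. Ratios of gene pairs were compared by exact permutation of the libraries (scipy 1.17.1). The number of fragments was estimated from the smallest step of FPKM times length among genes with 1 transcript longer than 2500 bases (GENCODE M21). No interval was computed for this depth. Gene positions are from GENCODE M21 (GRCm38). Promoter sequences were from RefSeq (6 of 10 genes matched, 1 shown).

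The 10 genes, 4 pathway lists and 11 marker lists were chosen with earlier results of these data known. All 10 genes are named, then genes of the pathway lists, those called first by size of change, and for each called gene the 3 most similar genes. The most similar genes of Cyp24a1 are not reported here. In the phosphate transport list 1 symbol had no gene in the values.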

Additional observations from a re-analysis of the deposited data

How the results depend on the processing

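With 3 libraries per group, Cyp24a1, at 4.05-fold in dbdb against control by the fit, was called or not depending on single libraries. Cyp27b1, Trpv5 and Calb1 were called higher than control in dbdb and in dbR under all 17 alternatives of each comparison. None of the 10 genes was called in dbR against dbdb under any of the 17. In dbdb against control 7 of the 10 were called with quantile normalization (25.6% of all genes) and 7 with mitochondrial transcripts left out (30.7% of all genes), against 4 as reported (26.4%), and 3 to 5 when 1 library was left out (19.0% to 21.8% of all genes). Of the 10, 4 to 5 were called in dbR against control under the settings that keep all libraries (18.6% to 28.2% of all genes), and 3 to 5 when 1 library was left out (17.1% to 19.7%). The number of all genes called in dbR against dbdb, 108 as reported, was 31 without a filter, 166 with a mean FPKM of at least 1, 203 with scaling to the 75th percentile, 234 with quantile normalization, 49 with the transcript of highest level, 22 with the 6 libraries alone, 18 without the variance trend, and 2 to 141 when 1 library was left out (2 without dbR replicate 2); the cause was not tested. With mitochondrial transcripts left out, 78.3% of the genes called in dbdb against control were higher, against 49.5% as reported, 70.5% against 51.1% in dbR against control (62.3% with the 75th percentile) and 48.6% against 75.9% in dbR against dbdb. With the replicate block 23 genes were called in dbR against dbdb, 3345 in dbdb against control (3840 without it) and 3030 in dbR against control (3497 without it), and the calls of the 10 genes stayed the same. The labels do not say whether libraries of the same number share a litter or batch. Across groups, deviations from the group mean correlated at -0.17 to 0.06 for the same number, beside -0.11 to 0.17 for different numbers. Whether a litter or batch was shared was not tested. Uncalled values near 0 changed sign under some alternatives. With mitochondrial transcripts left out Slc20a2 was at 0.13 in dbdb against control and Fgfr1 at -0.018 in dbR against dbdb, and with the 75th percentile Vdr was at 0.011 in dbR against dbdb. With 1 library left out, Slc20a2 ranged from -0.104 to 0.044 and Kl from -0.024 to 0.113 in dbdb against control, and Cyp27b1 from -0.47 to 0.15, Cyp24a1 from -0.62 to 0.45, Vdr from -0.099 to 0.067 and Fgfr1 from -0.016 to 0.110 in dbR against dbdb. The log2 ratio of Cyp24a1 to Cyp27b1 then ranged from -1.49 to 0.20 in dbdb against control and from -0.77 to 0.92 in dbR against dbdb. The log2 ratio of Slc34a1 to Slc34a3 ranged from -0.051 to 0.028 in dbdb against control, from -0.073 to 0.029 in dbR against dbdb and from -0.092 to 0.0096 in dbR against control.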
